A study of Mus musculus with 3 samples.

Results

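The transporters for glucose, amino acids and monocarboxylates belong to the solute carrier families Slc1, Slc2, Slc3, Slc5, Slc6, Slc7, Slc16, Slc36, Slc38 and Slc43. All protein-coding genes whose symbol falls in these families were taken, which gave 103 genes among the 21226 protein-coding genes of the table and its 39304 rows. The name pattern also takes in Slc7a6os, a gene on the strand opposite Slc7a6 that encodes no transporter. RNA sequencing measured them in glomerular cells of a single C57BL/6 mouse, a wild-type male of 8 weeks for which the labels name no treatment. Single cells were captured and their RNA copied to cDNA on a Fluidigm C1 microfluidic system. The identity of each well was set by qPCR of marker genes of the glomerular cell types, and the cDNA of 15 mesangial and 15 endothelial cells was mixed. The mixture of these 30 cells was divided into 3 aliquots, each made into a library, so all 3 libraries form 1 group and no contrast between groups exists. Every SD below is over the 3 aliquots (n = 3) and covers library construction and sequencing only, with no check across mice.

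Mesangial cells are the contractile cells that hold the glomerular capillaries together, and endothelial cells line those capillaries. Cells take up glucose mainly down its gradient through Slc2 carriers (the GLUT proteins), while the epithelium of the kidney tubule reabsorbs it with sodium through Slc5 carriers. Amino acids enter by sodium-driven carriers such as those of Slc38 and are exchanged by heteromers of an Slc3 heavy chain and an Slc7 light chain, and Slc16 carriers move lactate, pyruvate and ketone bodies. Work on cultured mesangial cells has linked their matrix production to glucose uptake through GLUT1, the product of Slc2a1.

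The libraries held 9141422, 10427635 and 10976563 reads in aliquots 1, 2 and 3. Values of marker genes are given for several cell types. The markers were chosen with earlier results of these data known, so they are no check of the labels. Of the mesangial genes 5 of 5 were detected, with 4790 to 4870 FPKM in sum over the aliquots. Of the endothelial genes 5 of 5 were detected, with 2380 to 2437 FPKM in sum, beside 36.5% of all protein-coding genes. Podocyte genes were also measured, with 4 of 5 detected and 153 to 165 FPKM in sum. Proximal tubule genes summed to at most 0.0694 FPKM, with 0 of 7 detected and Lrp2, Cubn, Slc34a1 and Hnf4a at 0. The 4 distal nephron and 4 blood cell genes were all listed at 0, where 54.5% of all protein-coding genes were. Which cells of the mixture made a transcript was not measured, and fewer cells that express a gene cannot be told apart from less RNA per cell.

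The pool carried a short list of these transporters. Detection was defined as at least 1 FPKM (fragments counted on a gene, scaled to its length and to the depth of the library) in every aliquot, and 18 of the 103 genes reached it, or 17.5%, against 36.5% of all protein-coding genes. A further 11 were above 0 without reaching the limit, where 8.97% of all protein-coding genes did so, and 74 were listed at 0 in every aliquot, or 71.8%, against 54.5% of all protein-coding genes. The mean was at least 10 FPKM for 12 of the 103, where 24.8% of all protein-coding genes reached that level. Subgroups within families were drawn after the values were seen. Their counts below therefore carry no weight beside these shares. The detected transporters had a median of 17.8 FPKM, beside 20.97 FPKM over all detected protein-coding genes.

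**Figure D1:**
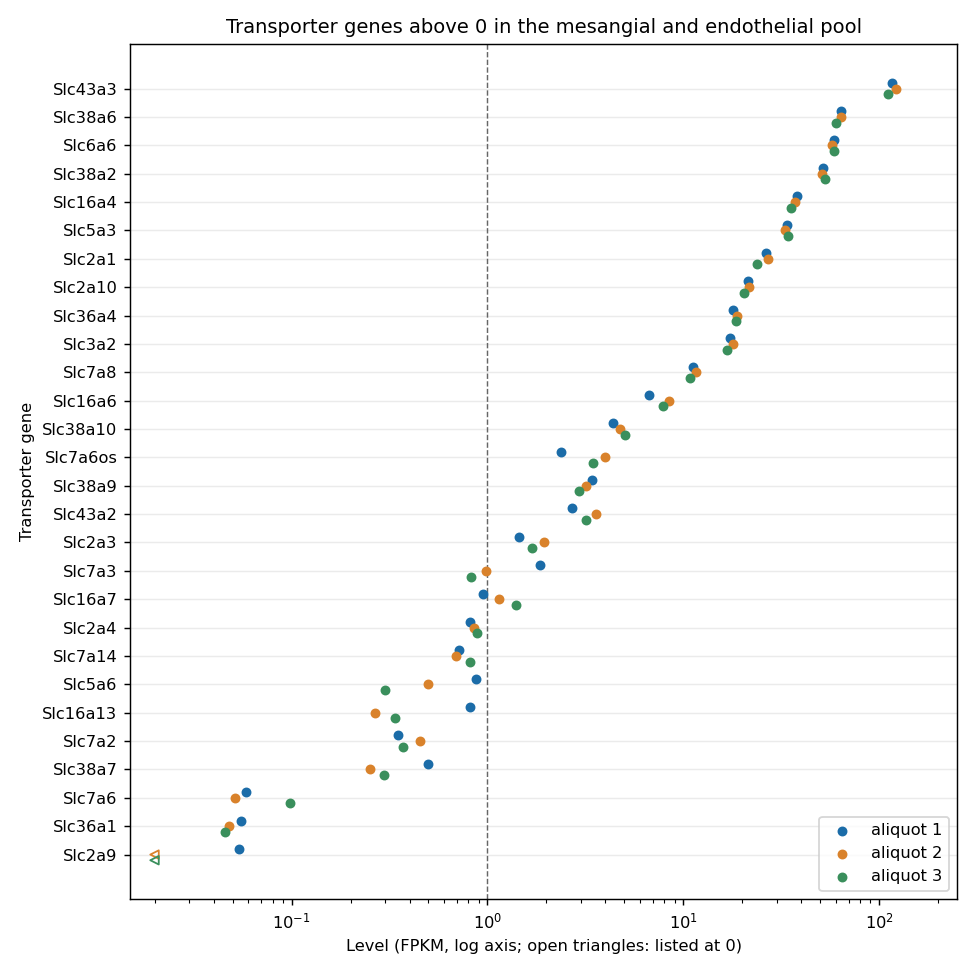
Level of 28 of the 29 transporter genes above 0 in each of the 3 aliquots, in FPKM on a log axis, ordered by mean, with a dashed line at 1 FPKM and open triangles for values listed at 0. The 3 aliquots lie close together from Slc43a3 (mean 116 FPKM) down to Slc7a8 (11.2 FPKM) and are further apart in several of the lower genes, such as Slc7a6os, Slc7a3 and Slc5a6.

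In sum the 103 genes had 495, 501 and 481 FPKM in aliquots 1, 2 and 3, or 0.0817% ± 0.00175 of the FPKM of all rows. The 4 highest, Slc43a3, Slc38a6, Slc6a6 and Slc38a2, made up 58.5% ± 0.116 of that sum, and the 12 highest 94.0% ± 0.292. By family, Slc38 held the largest share with 24.8% ± 0.366 and Slc43 came next with 24.1% ± 0.610, a difference smaller than their spreads combined. This order depends on gene length: rescaled to the longest transcript, Slc38 had 24.2%, Slc6 18.8% and Slc43 17.5%, and from the largest fitting lengths Slc43 had 25.95%, Slc38 25.5% and Slc6 13.8%. The Slc6 family had 11.8% ± 0.353 and Slc16 had 11.6% ± 0.0922, followed by Slc2 with 9.998% ± 0.297 and Slc5 with 6.94% ± 0.225. The shares of Slc36, Slc3 and Slc7 were 3.74% ± 0.129, 3.51% ± 0.0523 and 3.43% ± 0.112. All 7 members of Slc1 were listed at 0.

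**Figure D2:**
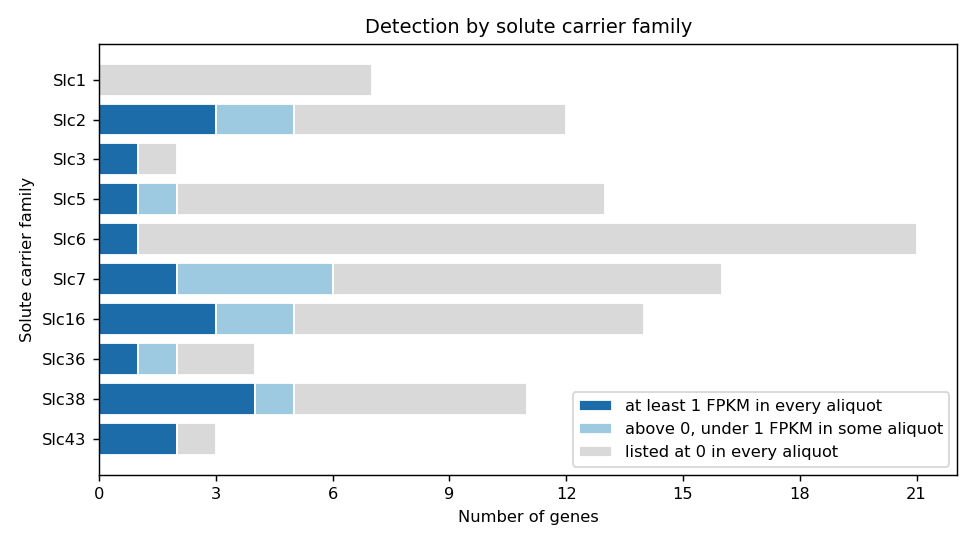
Number of genes of each solute carrier family by detection class, as stacked bars. Slc6 has the most members, 21, of which 20 are listed at 0, whereas Slc38 has 4 of 11 detected and Slc1 none of 7.

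Glucose carriers of the facilitative kind were led by Slc2a1 and Slc2a10. Slc2a1 (ENSMUSG00000028645, chromosome 4, 119108711 to 119137983, plus strand, GRCm38), which encodes the widely expressed glucose carrier GLUT1, had 26.3, 26.8 and 23.7 FPKM in aliquots 1, 2 and 3, from at least 314, 365 and 339 reads. Slc2a10 (ENSMUSG00000027661, chromosome 2, 165503787 to 165519917, plus strand) had 21.3, 21.6 and 20.3 FPKM. It encodes GLUT10, whose loss causes arterial tortuosity syndrome in humans. Their ranges did not overlap on the deposited scale. Rescaled to the longest transcript, Slc2a10 had 11.7 ± 0.395 FPKM, while for Slc2a1 both fitting lengths, 1304 and 2608 bases, allow 10.2 or 20.5 FPKM, below or above Slc2a10.

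The other members of Slc2 were low or at 0. Slc2a3 (GLUT3, the high-affinity carrier of neurons) had 1.46, 1.94 and 1.69 FPKM from at least 23, 35 and 32 reads, the lowest mean among the detected genes. Slc2a1 exceeded it by a log2 ratio of 3.31 ± 0.15 on the log2(FPKM + 1) scale, and the difference had the same direction in each aliquot. The insulin-responsive Slc2a4 (GLUT4) lay just under the limit with 0.816, 0.858 and 0.883 FPKM from at least 35 reads in all. The urate carrier Slc2a9 was represented by 1 read in aliquot 1. Slc2a2 (GLUT2 of liver and tubule), the fructose carrier Slc2a5, Slc2a8 and 4 further members were listed at 0.

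The stretch before the start of Slc2a1 is shown because the hypoxia response core ACGTG was searched in the 250 bases before each RefSeq gene start, on both strands. The sequence is from RefSeq on GRCm38.p6, chr4:119108495-119108744, plus strand, 5′ to 3′, with the match in capitals. The RefSeq start (119108745) lies 34 bases downstream of the start of the gene model given above, and the match (119108709 to 119108713) spans that outer start.
Slc2a1: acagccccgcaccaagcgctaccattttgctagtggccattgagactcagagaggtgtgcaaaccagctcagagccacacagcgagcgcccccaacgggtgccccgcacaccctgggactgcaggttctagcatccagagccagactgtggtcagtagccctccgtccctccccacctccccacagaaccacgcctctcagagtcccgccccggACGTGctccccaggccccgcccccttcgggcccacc
Of the 18 detected genes 13 had an entry, with 14 promoters, and 3 of the 14 (21.4%) held ACGTG, against 18.4% of 76 promoters of members at 0 and 16.6% of all 32851 promoters of the same length. The E-box CACGTG, which contains ACGTG, was in 0 of the 14, against 11.8% of promoters of members at 0 and 6.02% of all. Of the 14 windows, 9 had bases inside the gene model, whose outer start lay further upstream. A match is a description of letters and not a binding site. Among regulators of hypoxia and glucose responses, 6 of 9 listed genes were detected, beside 36.5% of all protein-coding genes. They were Epas1 with 301 ± 2.94 FPKM and Hif1a with 83.2 ± 3.13 FPKM, both oxygen-sensitive factors, their partner Arnt (16.9 ± 0.634 FPKM), the glucose-responsive Mlx and Mlxip, and Srebf1. Mlxipl and Myc were at 0. This list and the lists of genes below were chosen with earlier results of these data known. Their counts are therefore not read as an excess.

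Of the 13 members of Slc5, 11 were listed at 0 and the inositol carrier Slc5a3 alone was detected. All 7 genes grouped as sodium-glucose cotransporters and sugar sensors, among them Slc5a1 (SGLT1) and Slc5a2 (SGLT2), were at 0 in each aliquot. The inositol carriers Slc5a11 and Slc2a13 were also listed at 0. Of all members 71.8% were at 0, and of all protein-coding genes 54.5%. Slc5a3 (ENSMUSG00000089774, chromosome 16, 92058322 to 92087473, plus strand), the myo-inositol carrier SMIT1, had 33.8, 33.0 and 34.0 FPKM from 1766, 1968 and 2133 reads, nearly equal in the aliquots. Its exons share 1.46% of their length with Mrps6 and another gene on the same strand. The only other member above 0 was Slc5a6, a carrier of biotin and pantothenate, with 0.876, 0.497 and 0.300 FPKM.

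Taurine, like inositol, serves cells as an osmolyte, and its carrier Slc6a6 (TauT) was the third highest gene of the set. Slc6a6 (ENSMUSG00000030096, chromosome 6, 91684053 to 91759066, plus strand) had 58.8, 57.3 and 58.4 FPKM, with the smallest spread of all detected members (coefficient of variation 1.36%) and the most reads, 3317, 3685 and 3954. The other 20 members of Slc6 were listed at 0 in every aliquot. They include the betaine carrier Slc6a12, the creatine carrier Slc6a8, the glycine carrier Slc6a9 and the tubule amino acid carriers Slc6a18, Slc6a19 and Slc6a20a. Of 8 carriers of monoamines, GABA and glycine in the family 0 were above 0, where 71.8% of all members and 54.5% of all protein-coding genes were at 0. Akr1b3, the aldose reductase that makes the osmolyte sorbitol, had 135 ± 3.74 FPKM.

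Heteromeric amino acid exchangers were represented by 1 heavy chain and 1 light chain above the limit. Slc3a2 (ENSMUSG00000010095, chromosome 19, 8706882 to 8723369, minus strand), the heavy chain CD98hc that brings light chains to the plasma membrane, had 17.3, 17.8 and 16.6 FPKM. Of the 10 light chains of Slc7, Slc7a8 (ENSMUSG00000022180, chromosome 14, 54722209 to 54781946, minus strand), the neutral amino acid exchanger LAT2, was detected with 11.1, 11.6 and 10.8 FPKM. Slc7a6 (y+LAT2) had at least 1, 1 and 2 reads. The other 8 were listed at 0, among them Slc7a5 (LAT1), the alanine and serine carrier Slc7a10 and the cystine and glutamate exchanger Slc7a11. The second heavy chain Slc3a1 (rBAT) and its light chain Slc7a9, which together reabsorb cystine in the tubule, were both at 0.

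The window before the RefSeq start of Slc3a2 is printed because this gene is regulated by amino acid supply in other cells, and the amino acid response element TGATGNAA was searched there. That start (8713897) is an internal one, 9.47 kb downstream of the start of the gene model given above (8723369), so all 250 bases lie inside the gene model, and the sequence before the outer start was not searched. The window is chr19:8713898-8714147 of GRCm38.p6 from RefSeq, minus strand, 5′ to 3′, with ACGTG on the opposite strand in capitals.
Slc3a2: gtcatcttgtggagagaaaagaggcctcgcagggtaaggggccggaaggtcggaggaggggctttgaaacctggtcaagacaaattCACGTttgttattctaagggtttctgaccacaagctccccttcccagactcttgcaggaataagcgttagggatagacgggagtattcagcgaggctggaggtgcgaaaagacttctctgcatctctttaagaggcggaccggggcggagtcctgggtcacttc
TGATGNAA was in 0 of the 14 promoters of detected members, against 5.26% of promoters of members at 0 and 3.45% of all promoters. These letters were therefore not in the windows examined, and introns and more distant sequence were not searched. Of 13 listed genes of the amino acid response 5 were detected, a share near the 36.5% of all protein-coding genes. They were Atf4, the transcription factor of the response, with 33.7 ± 0.234 FPKM, Eif2s1 (31.1 ± 0.531 FPKM), Ddit3 (10.6 ± 1.31 FPKM), the kinase Eif2ak4 (9.73 ± 0.553 FPKM) and Cebpg (7.52 ± 0.453 FPKM). The serine synthesis genes Phgdh, Psat1 and Psph were at 0.

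Cationic amino acid carriers of Slc7 stayed under the limit. Slc7a3 (CAT3) had 1.86, 0.988 and 0.828 FPKM from 28, 17 and 15 reads, high in aliquot 1 and under 1 FPKM in the others. Slc7a14, a lysosomal protein, had 0.715, 0.692 and 0.810 FPKM, and the arginine carrier Slc7a2 had 0.350, 0.451 and 0.370 FPKM. Slc7a1 (CAT1), the usual arginine carrier of endothelium, and Slc7a4 were listed at 0.

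Sodium-coupled neutral amino acid carriers of Slc38 had 4 of 11 members detected. Slc38a6 (ENSMUSG00000044712, chromosome 12, 73286779 to 73354049, plus strand), or SNAT6, had 63.5, 63.4 and 59.9 FPKM from at least 957, 1091 and 1084 reads. Slc38a2 (ENSMUSG00000022462, chromosome 15, 96687392 to 96699730, minus strand), the amino acid-regulated system A carrier SNAT2, had 51.7, 50.7 and 52.8 FPKM. It was the only detected gene of 5 plasma membrane carriers of systems A and N, with Slc38a1, Slc38a3, Slc38a4 and Slc38a5 at 0. Slc38a10 had 4.38, 4.76 and 5.04 FPKM, and the lysosomal arginine sensor Slc38a9 had 3.43, 3.18 and 2.93 FPKM.

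Of 4 genes grouped here as lysosomal amino acid carriers Slc38a9 alone was detected, and the other 3 were above 0 and under the limit. Beside Slc38a9 and Slc7a14, the lysosomal glutamine carrier Slc38a7 had 0.4995, 0.250 and 0.297 FPKM and the proton-coupled Slc36a1 (PAT1) had at least 1 read in each aliquot. Slc36a4 (ENSMUSG00000043885, chromosome 9, 15709738 to 15743361, plus strand), a relative of Slc36a1 that was not put in this group, was higher with 17.8, 18.7 and 18.6 FPKM. Of 24 listed genes of amino acid sensing by mTORC1, Slc38a9 among them, 19 were detected, beside 36.5% of all protein-coding genes. These genes were chosen with earlier results of these data known, so the count is not read as an excess. The list had a median of 11.7 FPKM. At the top stood the Ragulator subunits Lamtor5 (225 ± 5.37 FPKM) and Lamtor3 (171 ± 5.01 FPKM), while Mtor had 5.55 ± 0.414 FPKM. The leucine sensor Sesn2 had 0.0105 FPKM, and its relatives Sesn1 and Sesn3 had 12.6 ± 0.373 FPKM and 0.101 FPKM.

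All Slc1 carriers of glutamate and neutral amino acids were at 0. The 5 high-affinity glutamate carriers, Slc1a1, Slc1a2 and Slc1a3 among them, and the neutral exchangers Slc1a4 and Slc1a5 (ASCT2) were listed at 0 in every aliquot. This stands beside 71.8% of all members and 54.5% of all protein-coding genes at 0. In the list of 9 glutamine and glutamate enzymes 3 were detected, a share near the 36.5% of all protein-coding genes. Among them were Glud1 with 125 ± 4.61 FPKM and glutamine synthetase (Glul) with 16.7 ± 2.32 FPKM. Asparagine synthetase (Asns), Got1 and Gpt were at 0.

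Slc43a3 (ENSMUSG00000027074, chromosome 2, 84936579 to 84958509, plus strand), a carrier of purine nucleobases, had 116, 121 and 111 FPKM from at least 1268, 1510 and 1457 reads, rank 978 among protein-coding genes. On the deposited scale this was the highest level of the set, whereas on the longest transcript it had 52.9 FPKM, under Slc6a6 with 58.0 FPKM, unless the other fitting length of 2398 bases holds, which would give 106 FPKM. Slc43a2 (LAT4), which lets branched-chain amino acids leave the cell, had 2.69, 3.57 and 3.19 FPKM. Slc43a1 (LAT3), a related carrier that is prominent in podocytes, was listed at 0 in each aliquot. The 5 podocyte genes ran from Ptpro at 0.887 ± 0.135 FPKM, under the limit, to Podxl at 75.9 ± 2.15 FPKM, with Nphs1 at 37.6 ± 2.37 FPKM.

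Among Slc16 genes those above the limit were not the lactate carriers. Of the 4 proton-linked monocarboxylate carriers, Slc16a1 (MCT1), Slc16a3 (MCT4) and Slc16a8 (MCT3) were listed at 0, and Slc16a7 (MCT2) had 0.945, 1.15 and 1.39 FPKM, under the limit in aliquot 1. Slc16a4 (ENSMUSG00000027896, chromosome 3, 107291230 to 107312115, plus strand), the family member MCT5, had 38.2, 37.1 and 35.3 FPKM. Slc16a6 (MCT7) had 6.70, 8.42 and 7.88 FPKM, low in aliquot 1, and 22.5% of its exon length is overlapped by genes on the opposite strand. Slc16a13 had 0.810, 0.266 and 0.337 FPKM from at least 8, 3 and 4 reads.

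Partners of the lactate carriers and enzymes of the first steps were detected alongside. Of 13 ancillary and trafficking genes 7 were detected, beside 36.5% of all protein-coding genes. Among them was basigin (Bsg), which escorts Slc16a1 and Slc16a3 to the membrane, with 58.4 ± 2.63 FPKM, and the other escort, embigin (Emb), was at 0. Txnip and Arrdc4, arrestin-like proteins that promote removal of GLUT1 from the surface, had 202.5 FPKM on average and 6.25 ± 1.03 FPKM, and Tbc1d4, which holds GLUT4 vesicles back, had 26.3 ± 1.29 FPKM. The kinase Sgk1 and the ubiquitin ligase Nedd4, regulators of several carriers, had 814 ± 20.2 FPKM and 625 ± 13.5 FPKM, while Nedd4l of the same list was at 0. Ldha, which makes lactate from pyruvate, had 210 ± 2.96 FPKM, Ldhb 16.1 ± 1.30 FPKM and hexokinase Hk1 35.99 ± 0.923 FPKM, with Hk2 and Hk3 at 0. In that list of first steps 5 of the 12 genes were detected, a share near the 36.5% of all protein-coding genes.

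Several carriers known from the proximal tubule were listed at 0. A grouping of 14 of them was made after the values were seen and so carries no weight as a count, where 71.8% of all members and 54.5% of all protein-coding genes were at 0: Slc5a1, Slc5a2, Slc5a8, Slc5a12, Slc2a2, Slc3a1, Slc7a7, Slc7a9, Slc6a18, Slc6a19, Slc6a20a, Slc6a20b, Slc1a1 and Slc36a2. Slc7a8 and Slc2a9, which the tubule also expresses, were above 0 and are not in it. Collectrin (Cltrn), a partner of Slc6a19 and its relatives, was at 0 too. A gene at 0 would by counting alone allow up to 3 reads over the 3 libraries, which is 0.0482 FPKM at the median transcript length of the members at 0. Some zeros of this table fall on genes that most cells use, such as the aminotransferase gene Got1, so a zero is given only as listed. Overlap with other genes was not extensive: 14 of the 74 members at 0 shared any exon sequence with another gene and 0 of them more than 50%.

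Several of these genes lie side by side on a chromosome. Among the 103 genes 16 adjacent pairs lie within 250 kb, of which 10 have both at 0, 5 have a single gene above 0 and 1 has both above 0. Since 71.8% of all members were at 0, these counts are not read as a result about neighbours, and a relation between neighbours was not tested. On chromosome 15 Slc38a2 at 51.8 ± 1.04 FPKM lies 44.5 kb from Slc38a1 (96571418 to 96642913) at 0. On chromosome 2 Slc43a3 at 116 ± 5.03 FPKM lies 73.0 kb from Slc43a1 (84838850 to 84863594) at 0, and on chromosome 3 Slc16a4 at 36.9 ± 1.43 FPKM lies 155 kb from Slc6a17 at 0. The pair with both above 0 is Slc7a6 with 0.0693 ± 0.0249 FPKM and Slc7a6os with 3.26 ± 0.816 FPKM, on opposite strands 2.01 kb apart.

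The gene length behind each FPKM value bears on this order. The deposited values imply whole lengths, which for the detected members ran from 27.7% of the longest annotated transcript (Slc2a3) to 99.9% (Slc38a9), with a median of 52.0%. Slc6a6 was scaled to 6169 bases, 99.7% of its longest transcript, and Slc43a3 to 1199 bases, 45.7% of its longest. On the longest transcript Slc6a6 had 58.0 ± 0.790 FPKM and was the highest member at the lengths used, ahead of Slc43a3 with 52.9 ± 2.30 FPKM, Slc38a2 with 43.5 ± 0.871 FPKM and Slc16a4 with 31.9 ± 1.24 FPKM. Slc38a6 then had 26.1 ± 0.868 FPKM, rank 5 in place of rank 2. Where several lengths fitted, the one nearest to the mean transcript length was used. For Slc43a3 and Slc38a6 it lay within 1 base of that mean, but for Slc38a2, Slc2a1 and Slc36a4 no fitting length did. Over the fitting lengths Slc38a2 ranged between 4.35 and 47.9 FPKM on its longest transcript and Slc36a4 between 5.13 and 15.4 FPKM. From the largest fitting lengths Slc43a3 had 106 FPKM and Slc38a6 52.3 FPKM, and Slc43a3 was then again above Slc6a6.

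**Figure D3:**
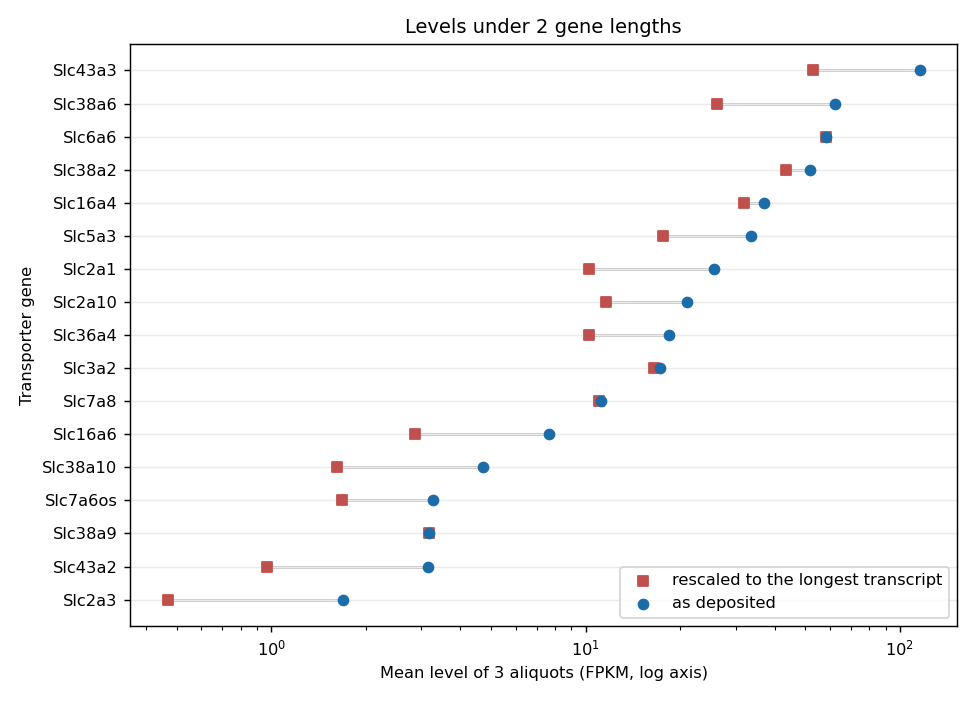
Mean level over 3 aliquots of 17 of the 18 detected genes, in FPKM on a log axis, as deposited (circles) and rescaled to the longest annotated transcript (squares). Slc6a6, Slc3a2, Slc7a8 and Slc38a9 hardly move, whereas Slc2a3 moves to 0.468 FPKM, Slc43a2 to 0.970 FPKM and Slc38a6 to 26.1 FPKM. Several lengths fit these genes, and the largest would give 1.41 FPKM for Slc2a3, 2.91 FPKM for Slc43a2 and 52.3 FPKM for Slc38a6.

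The spread of these genes between aliquots was compared with counting error. At least 8 of the 18 detected members had a coefficient of variation above the value expected from counting error. Counting error alone also places some genes above its expected value, and the share over all genes is not given here. The count is therefore not read as excess spread. It is a lower bound, since recovered reads are a lower bound for genes such as Slc38a2, Slc2a1 and Slc36a4 where several lengths fitted. Recovered reads were compared with the depth of the libraries by a chi-square test, which with Benjamini-Hochberg adjustment over 9120 genes called 0 of the 24 members with at least 30 reads, where 1.09% of all tested genes were called. At an unadjusted chi-square p under 0.05 there were 2 on these reads, Slc7a3 (Benjamini-Hochberg adjusted p = 0.287) and Slc5a6 (adjusted p = 0.396), both highest in aliquot 1. The share of all tested genes under that limit is not given here, so the 2 are not read as an excess. The statistic grows with the number of reads. For genes with several fitting lengths, such as Slc43a3, the unadjusted p-values are therefore upper bounds, and the test was not run at the longer lengths. The next was Slc7a6os (chi-square test, adjusted p = 0.442), with 33, 63 and 58 reads in aliquots 1, 2 and 3, followed by Slc43a3 (adjusted p = 0.468). The median coefficient of variation was 3.32% for the 11 members of 10 to 100 FPKM, beside 3.88% for all 4124 genes of that class, and 12.8% for the 6 members of 1 to 10 FPKM, beside 8.92% for 2500 genes. Reads of amplified cDNA are not independent molecules, so the test covers counting error only.

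**Figure D4:**
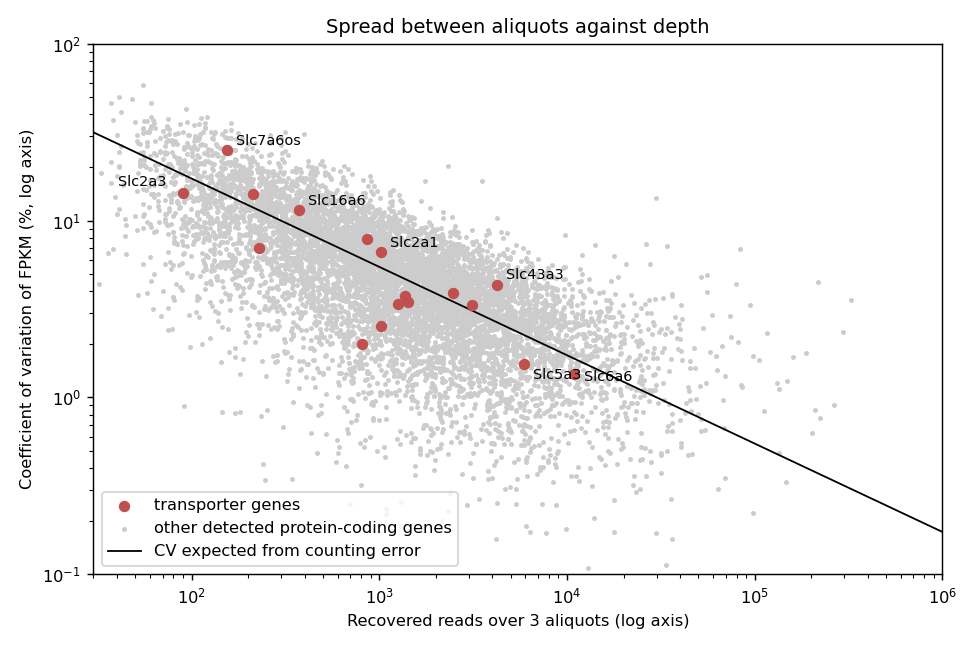
Coefficient of variation of FPKM over the 3 aliquots against recovered reads, both on log axes, for 17 of the 18 detected transporter genes and for other detected protein-coding genes, with a line for the value expected from counting error. The transporters lie on both sides of the line, from 25.0% for Slc7a6os to 1.36% for Slc6a6, and the reads of Slc38a2, Slc2a1 and Slc36a4 are lower bounds.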

How the data were processed

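One table of 39304 rows held 1 column per aliquot, mapped by title. The deposited values are FPKM made by the authors, counts scaled to gene length and library depth. Per the submitters' processing notes reads were handled with TopHat2 2.0.12 and HTSeq 0.6.1 on GRCm38. The release of the gene models, like the definition of gene length, is not given in the sources used here. Symbols matched 37607 of 39179 Ensembl identifiers. GENCODE M21, on the same build but perhaps another release than the authors', gave biotypes, positions and transcript lengths. The members and lists were chosen with earlier results of these data known, and subgroups within families were drawn after the values were seen.

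Each library's total came from the value that 1 read takes most often among genes under 0.5 FPKM, the mean transcript length being taken as gene length. For each of the 11142 genes above 0 a whole length was sought that made its 3 read numbers whole within 0.0001 reads. Of several lengths that fitted, one at most 1 base from the mean was used, otherwise the smallest, so reads are a lower bound where several fit. No count model was run. The recovery and the chi-square test were tested on simulated data (Python 3.11.15, scipy 1.17.1). There every gene had its rounded mean transcript length and reads varied by counting error alone. The simulation therefore did not test genes whose length lies away from that mean. Named genes were every detected member, those beside the limit of 1 FPKM and a list of textbook members. Alternatives were other detection limits, lengths, filters, a pseudocount of 0.1 FPKM and leaving out each aliquot. Some genes named by these rules are left out of text and figures, while counts and sums still hold them.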

Additional observations from a re-analysis of the deposited data

How the results depend on the processing

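No paired analysis was possible because all 3 aliquots belong to 1 group. The number of detected members, 18, was 22 at 0.5 FPKM, 13 at 5 FPKM, 20 by the mean, 16 on the longest transcript, 17 without Slc7a6os and 18 to 19 with an aliquot left out. Members beyond sampling noise stayed at 0 in each alternative tried, and the reads of longer fitting lengths were not among these. With FPKM rescaled to the longest transcript the family shares became 7.38% for Slc2, 5.36% for Slc3, 5.82% for Slc5, 18.8% for Slc6, 4.61% for Slc7, 13.0% for Slc16, 3.34% for Slc36, 24.2% for Slc38 and 17.5% for Slc43. Rescaled instead from the largest length that fitted each detected gene, an alternative chosen after the data were seen, Slc2 had 8.09%, Slc3 3.94%, Slc5 4.28%, Slc6 13.8%, Slc16 11.3%, Slc38 25.5% and Slc43 25.95%, with 18 members detected. With members under 1 FPKM left out Slc7 had 2.97% and Slc16 11.4%. The log2 ratio of Slc2a1 to Slc2a3 was 3.85 with a pseudocount of 0.1 FPKM and 2.94 on the longest transcript. Rescaling moved the level of 15 of 18 detected genes beyond their SD. Leaving out an aliquot moved 0 of them, an outcome fixed by arithmetic. The mean of 3 values cannot shift by their SD when 1 is left out, so nothing is concluded from it. Rescaling changes only the length by its construction. Values under about 1 FPKM rest on few reads, and the single pool and mouse limit every statement.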
